A study of Mus musculus with 6 samples.

Results

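The IFIT (interferon-induced protein with tetratricopeptide repeats) and OAS (2′-5′-oligoadenylate synthetase) genes were followed in RNA from macrophages with and without the soluble epoxide hydrolase (sEH), the enzyme that Ephx2 encodes and that converts fatty acid epoxides to diols. The members were picked out by gene symbol, from a list drawn up with earlier results of these data known, and are Ifit1, Ifit1bl1, Ifit2, Ifit3, Ifit3b, Oas1a, Oas2, Oas3, Oasl1 and Oasl2. All 10 were found among the 19309 genes of the deposited count table.

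Each of the 6 libraries was made from the macrophages of 1 mouse, 3 lacking sEH (sEH-/-) and 3 wild-type. Per the methods the mice were strain-matched littermates of 8 to 10 weeks, the sEH-/- mice with a constitutive deletion of Ephx2 that was not limited to macrophages. Bone marrow monocytes of both genotypes grew into macrophages over 7 days with the growth factors M-CSF and GM-CSF, were polarized to M1 with LPS and interferon-γ, and were then exposed to TGF-β1 for 48 h to give M2c macrophages, the state linked to the resolution of inflammation. The M1 step lasted 24 h per the series' design text and 12 h per the methods, and there was no library of cells that had not seen LPS and interferon-γ. The paper states that the work after its comparison of the sexes used female mice or donors. Its methods say that most experiments used cells from females, and the labels give no sex for single libraries. Library totals lay between 4400197 and 6096440 counts. Ephx2 had 1 to 4 counts in the sEH-/- libraries and 26 to 57 in the wild-type libraries, a log2 fold change of -4.05 (edgeR, adjusted p = 0.0042). All 10 macrophage markers examined were detected, among them Csf1r, the receptor for M-CSF, at 499.8 ± 66.5 CPM in the sEH-/- and 424 ± 50.1 CPM in wild-type cells (SD, n = 3 each, counts scaled to a common library size), Adgre1 at 439.8 ± 45.1 and 358 ± 46.1 CPM, and Mertk, an efferocytosis receptor, at 312 ± 37.7 and 281 ± 32.9 CPM.

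As background, type I interferons bind the receptor formed by Ifnar1 and Ifnar2 and act through the kinases Jak1 and Tyk2 to assemble ISGF3, a transcription factor complex that contains Stat2 and Irf9. ISGF3 binds the interferon-stimulated response element (ISRE) in the promoters of IFIT and OAS genes. IFIT proteins are made of helical tetratricopeptide repeats, and several of them hold viral RNA that lacks the host's cap methylation or carries a 5′-triphosphate. OAS proteins sense double-stranded RNA and make 2′-5′-linked oligoadenylates, messengers of the antiviral response. In macrophages both families are induced after LPS through the interferon-β the cells release.

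The promoters are shown first, and 6 of the 10 members hold an ISRE core there. The members were chosen from families known as interferon targets, so the element is background and not a finding of these libraries. In windows from 250 bases before to 50 bases after the annotated start sites (RefSeq, GRCm38.p6), 9 of the 10 members had an entry, with 11 windows in all, and Oas2 had none in the table used. The core of the ISRE, searched on both strands as GAAA, any 2 bases and GAAA again, was found in 1131 of all 32851 promoter windows (3.44%). Ifit1, Ifit3 and Ifit3b each held 2 copies, Oas1a held 2 that overlap each other, Ifit1bl1 held 1 in each of its windows, and Oas3 held 1. Ifit2, Oasl1 and Oasl2 held none in these windows. The stretches around the element are printed 5′ to 3′ on the strand of the gene with the core in capitals, so that TTTC letters are the element read from the other strand.
Ifit1 (chr19:34640719-34640868, plus strand): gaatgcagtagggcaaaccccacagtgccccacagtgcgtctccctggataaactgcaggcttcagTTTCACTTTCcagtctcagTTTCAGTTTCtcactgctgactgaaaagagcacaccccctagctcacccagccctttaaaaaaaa
Ifit3 (chr19:34583359-34583508, plus strand): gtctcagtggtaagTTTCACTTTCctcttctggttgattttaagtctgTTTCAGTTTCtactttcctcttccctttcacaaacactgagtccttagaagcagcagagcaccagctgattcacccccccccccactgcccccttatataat
Ifit3b (chr19:34607755-34607904, plus strand): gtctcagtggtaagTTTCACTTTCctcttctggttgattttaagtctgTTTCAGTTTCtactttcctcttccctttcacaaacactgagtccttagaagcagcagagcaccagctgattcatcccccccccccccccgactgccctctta
Ifit1bl1 (chr19:34601989-34602138, minus strand): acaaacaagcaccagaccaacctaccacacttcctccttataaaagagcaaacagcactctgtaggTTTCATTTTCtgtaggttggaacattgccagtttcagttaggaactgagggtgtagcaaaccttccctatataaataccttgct
Oas1a (chr5:120907526-120907675, minus strand): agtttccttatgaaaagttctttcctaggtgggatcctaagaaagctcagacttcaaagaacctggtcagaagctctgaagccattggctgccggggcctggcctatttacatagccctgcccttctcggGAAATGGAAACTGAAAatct
Oas3 (chr5:120777670-120777819, minus strand): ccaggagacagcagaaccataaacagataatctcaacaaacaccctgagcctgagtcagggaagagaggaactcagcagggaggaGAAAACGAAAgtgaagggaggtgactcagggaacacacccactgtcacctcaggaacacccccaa
The cores of Ifit1 lay 104 and 85 bases before its start site. Those of Oas1a lay 20 and 14 bases before it, the closest to a start site among the members. Ifit3 and Ifit3b carried the same 2 cores within a stretch of 169 bases that was identical between both promoters. A second element, the interferon-γ activated site searched as TTCNNNGAA, was found in Oas1a and in Ifit2 and in 8.30% of all windows. A match is a description of letters, and binding was not measured.

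The genes lie in 3 clusters. The 5 Ifit genes span 99.3 kb of chromosome 19 (chr19:34550694-34650009, mm10), where Ifit1bl1 is on the minus strand and the others are on the plus strand. Oas1a, Oas2 and Oas3 span 177 kb of chromosome 5 (chr5:120730333-120907521), all on the minus strand, and Oasl1 and Oasl2 span 41.0 kb of the same chromosome (chr5:114896936-114937915) on the plus strand. The coding sequences of Ifit3 and Ifit3b, each 1212 bases, were identical at 1201 positions (99.1%). Oasl1 and Oasl2 shared 61.9% and Ifit1 and Ifit1bl1 75.1% of the columns of their alignment. Reads that matched several places had been removed before counting, so sequence shared between copies could not be counted. Shared sequence was measured in words of 50 bases, an assumed length, because the read length is not given. Of all 50-base words in the annotated transcripts, 48.8% were in no other gene's transcripts for Ifit3, 55.0% for Ifit3b and 42.4% for Oas1a. Oas1a shares its words mostly with its neighbour Oas1g. Introns and unannotated sequence were not searched, so the part that could be counted may be smaller. The share was 92.9% for Ifit1, 93.5% for Ifit1bl1 and 99.5% to 100% for the other members. The counts of Ifit3, Ifit3b and Oas1a are therefore uncertain as measures of the whole transcript.

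All 10 members had a log2 fold change above 0 in sEH-/- over wild-type cells, against 49.8% of the 13785 genes tested. Ifit1bl1, Ifit3b and Oas2 rose, by 3.34-fold, 2.62-fold and 1.99-fold. Ifit1 was 1.47-fold higher and passed the test on p but not on size. The remaining 6 genes had folds of 1.11 to 1.31 and did not pass. A gene was called when edgeR's quasi-likelihood test gave a Benjamini-Hochberg adjusted p below 0.05 and the fold was above 1.5. With both criteria, 3 of 10 members were called higher, against 1.51% of all tested genes, and 0 lower, against 1.1% (2.61% in either direction). With the adjusted p alone 4 members were higher, against 2.39%. In 6 members all sEH-/- libraries lay above all wild-type libraries in CPM, against 11.8% of the tested genes. Among 7093 other genes whose counts per exonic base lay in the range of the members, the corresponding shares were 1.1% called higher, 2.47% by adjusted p alone, 12.2% without overlap and 52.6% with a log2 fold change above 0. The median log2 fold change of the members was 0.37, while that of all tested genes was -0.00092. The members lie in clusters, share sequence and are measured in the same 6 libraries, so that they are not independent of each other. In bulk RNA, fewer cells of a type and less RNA per cell cannot be told apart.

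**Figure D1:**
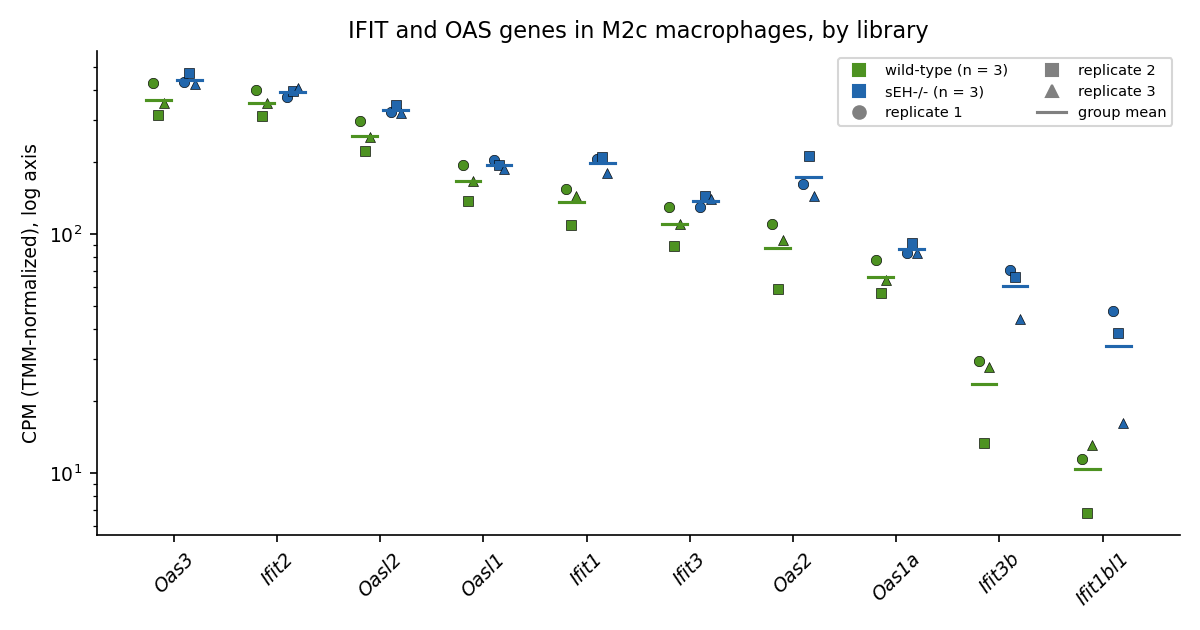
Level of each IFIT and OAS gene in each of the 6 libraries (CPM, log axis), with 3 sEH-/- (blue) and 3 wild-type (green) libraries drawn as symbols by replicate and the group means as lines. The genotypes are apart in 6 genes and overlap in 4, and wild-type replicate 2 is the lowest point in all 10 genes.

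Within the IFIT family, Ifit1bl1 had the largest difference of the 10 members. It is a close relative of Ifit1 on the opposite strand (ENSMUSG00000079339, chr19:34592891-34601956). It had 279, 191 and 70 counts in sEH-/- replicates 1 to 3 and 52, 42 and 73 in the wild-type replicates, that is 47.7, 38.5 and 16.2 CPM against 11.4, 6.81 and 13.1 CPM. The sEH-/- libraries spread over a wide range, and replicate 3 lay just above the highest wild-type library only after scaling for depth. Its log2 fold change was 1.74 (SE 0.36, 95% interval 0.94 to 2.54, edgeR, adjusted p = 0.032).

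Ifit3b (ENSMUSG00000062488, chr19:34607970-34613401) is the near-identical copy of Ifit3. It had 414, 329 and 190 counts in sEH-/- cells and 134, 82 and 155 in wild-type cells, or 70.8, 66.4 and 44.1 CPM against 29.5, 13.3 and 27.8 CPM. The lowest sEH-/- library was 1.5-fold above the highest wild-type library, the widest gap among the members. The log2 fold change was 1.39 (SE 0.26, edgeR, adjusted p = 0.025). Ifit3 itself (ENSMUSG00000074896, chr19:34583531-34588731) was measured at 129.9, 144 and 140.3 CPM in the sEH-/- and 130.4, 88.9 and 111 CPM in wild-type libraries. Wild-type replicate 1 was level with the lowest sEH-/- library, and the change on the log2 scale was 0.33 (SE 0.12, edgeR, adjusted p = 0.125). Of the counts of both copies, Ifit3b held 35.3, 31.5 and 23.9% in the sEH-/- and 18.4, 13.0 and 20.1% in the wild-type libraries. The ranges did not overlap, and the exact two-sided permutation p was 0.1, the smallest that 3 against 3 libraries allow. These shares depended on the treatment of duplicates, since Ifit3 had up to 0.918 counts per unique word. Corrected for saturation at 1 count per unique word, they were 20.2, 19.2 and 16.1% in the sEH-/- and 12.05, 8.64 and 12.8% in the wild-type libraries, again without overlap. Summed into 1 gene, Ifit3 and Ifit3b had a log2 fold change of 0.58 (edgeR, adjusted p = 0.045), just under the size limit of 0.585.

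Ifit1 (ENSMUSG00000034459, chr19:34640871-34650009), the IFIT protein that binds RNA with an unmethylated cap, had 207, 209 and 180 CPM in sEH-/- cells and 154, 109 and 145 CPM in wild-type cells. The groups did not overlap. The log2 fold change was 0.55 (SE 0.12, 95% interval 0.29 to 0.82, edgeR, adjusted p = 0.035). Ifit2 (ENSMUSG00000045932, chr19:34550694-34576419), which also binds RNA and forms complexes with other IFIT proteins, had 374, 397 and 409 CPM against 399.7, 312 and 352 CPM. Its wild-type replicate 1 lay above 2 of the sEH-/- libraries, and the log2 fold change of 0.15 had an interval from -0.069 to 0.37.

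Within the OAS family, Oas2 (ENSMUSG00000032690, chr5:120730333-120749853) was the member that rose. It encodes the middle-sized synthetase and had 951, 1055 and 620 counts in sEH-/- cells against 500, 363 and 528 in wild-type cells. In CPM these were 163, 213 and 144 against 110, 58.9 and 94.6, so that the lowest sEH-/- library was 1.31-fold above the highest wild-type library. The log2 fold change was 0.99 (SE 0.20, 95% interval 0.55 to 1.44, edgeR, adjusted p = 0.030). Its neighbour Oas3 (ENSMUSG00000032661, chr5:120753098-120777661), the largest synthetase and the one that binds long double-stranded RNA, had 431, 474 and 426 CPM in the sEH-/- and 427, 314 and 355 CPM in wild-type cells. Wild-type replicate 1 was level with the lowest sEH-/- library, and the log2 difference was 0.28 (SE 0.11, edgeR, adjusted p = 0.164).

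Oas1a (ENSMUSG00000052776, chr5:120896256-120907521), the small synthetase, had 83.7, 91.6 and 83.5 CPM in the sEH-/- and 77.8, 56.8 and 64.4 CPM in wild-type cells. The groups did not overlap, and the log2 fold change was 0.39 (SE 0.11, edgeR, adjusted p = 0.070). The OAS-like proteins carry ubiquitin-like domains. Oasl2 (ENSMUSG00000029561, chr5:114896936-114912234) had 325, 347 and 322 CPM against 297, 223 and 256 CPM, without overlap, and a log2 fold change of 0.36 (SE 0.10, edgeR, adjusted p = 0.072). Oasl1 (ENSMUSG00000041827, chr5:114923240-114937915), which is known to hold back the translation of Irf7, had 204, 195 and 188 CPM against 195, 138 and 167 CPM. Its groups overlapped, and the log2 fold change of 0.24 had an interval from -0.0077 to 0.48. A p above the threshold does not show that these genes were equal between genotypes.

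**Figure D2:**
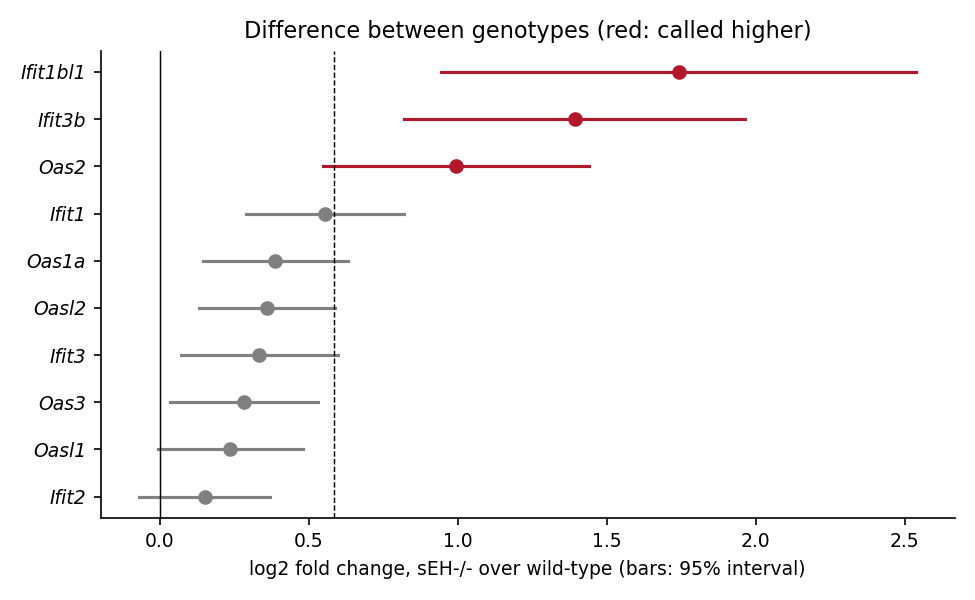
Log2 fold change of each member in sEH-/- over wild-type macrophages, with bars for the 95% interval of the edgeR fit, called genes in red and a dashed line at the size limit of 0.585. All 10 points are above 0, the intervals of Ifit2 and Oasl1 include 0, and Ifit1bl1, Ifit3b and Oas2 lie above the size limit.

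Levels were compared between genes only per kilobase. Per kilobase of exon, the order of the mean level in wild-type cells was Ifit2, at 90.3 ± 11.2 CPM per kb (SD, n = 3), then Oasl1 at 63.9 ± 10.9, Ifit3 at 63.1 ± 11.9, Oas3 at 51.7 ± 8.10 and Ifit1 at 51.2 ± 8.94. Oasl2 at 40.6 ± 5.88, Oas1a at 35.2 ± 5.65, Oas2 at 19.7 ± 5.88, Ifit3b at 11.8 ± 4.44 and Ifit1bl1 at 4.62 ± 1.44 CPM per kb followed. Neighbours in this order overlapped over the libraries except at 3 steps, from Ifit2 to Oasl1, from Oas1a to Oas2 and from Ifit3b to Ifit1bl1. In sEH-/- cells Ifit2 was again the highest per kilobase of exon, at 100.1 ± 4.48 CPM per kb, and the same 3 genes were at the bottom, at 38.9 ± 8.02 for Oas2, 30.2 ± 7.17 for Ifit3b and 15.1 ± 7.17 for Ifit1bl1. Ifit1 was level with Oasl1, at 74.9 ± 6.12 and 75.0 ± 3.21 CPM per kb. This order changed when only the 50-base words found in no other gene were taken as the length, a measure added after seeing the data. The measure depends on the assumed word length. Ifit3 was then the highest member, at 133 ± 25.1 CPM per kb of such words in wild-type and 167 ± 9.01 in sEH-/- cells, above Ifit2 at 91.4 ± 11.4 and 101 ± 4.54 without overlap. Oas1a, at 85.1 ± 13.7 in wild-type and 111 ± 5.96 in sEH-/- cells, moved next to Ifit2. Ifit3b stood at 21.9 ± 8.28 and 56.3 ± 13.4, and Ifit1bl1 remained the lowest, at 5.07 ± 1.58 and 16.6 ± 7.87.

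The 3 genes with the lowest levels per kilobase of exon were the 3 called genes. Over the 10 members, the fold change and the counts per exonic base had a Spearman correlation of -0.879, or -0.624 with counts per unique word, given as a description of 10 genes in the same 6 libraries. Duplicate reads had been removed before counting, which limits how many reads 1 position can add, and no tested gene exceeded a mean of 0.972 counts per exonic base. The members had means of 0.052 for Ifit1bl1 to 0.493 for Ifit2. When the counts were corrected for saturation at 1 count per exonic base, the median log2 fold change of the members was 0.42 and Ifit1 joined the called genes at 0.67 (edgeR, adjusted p = 0.030). A second correction took only the words unique to each member as its length, while all other genes kept their full exon length. Members that share sequence were thus corrected more than other genes that do. The median was then 0.61, and Ifit3 was called as well at 0.71 (edgeR, adjusted p = 0.044). Over all tested genes, 400 and 401 were called under the first and the second correction, against 360 as deposited. Ifit2 stayed at 0.18 under both corrections, with adjusted p values of 0.30. The sign was positive for all 10 members under both corrections.

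**Figure D3:**
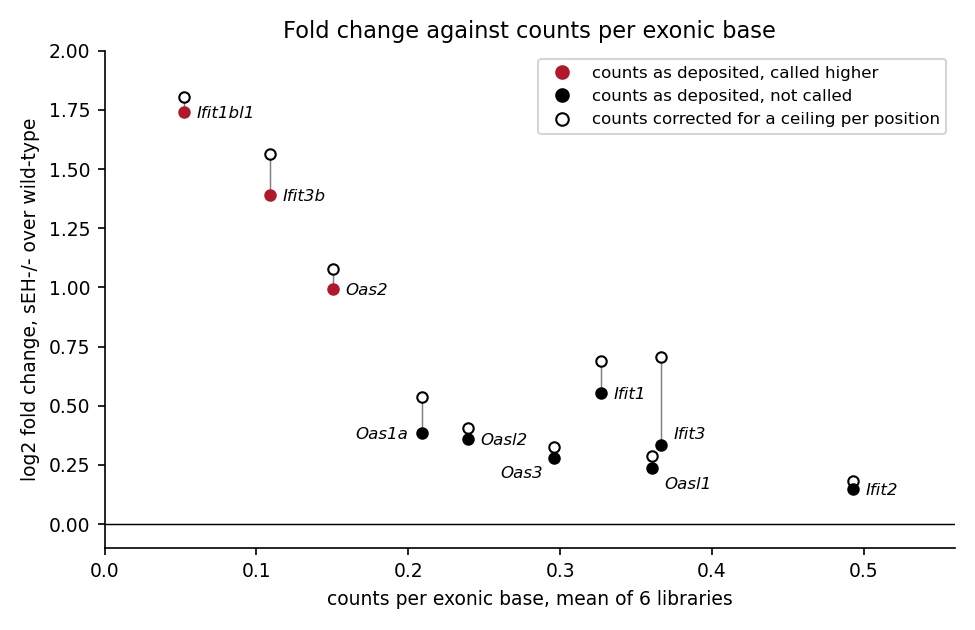
Log2 fold change of each member against its mean counts per exonic base. Filled points are from the deposited counts (red where called). Open points are after the correction for saturation over the words unique to each member, with full exon lengths for all other genes. Ifit1bl1, Ifit3b and Oas2 sit at the left with the largest changes, Ifit2 sits at the right at 0.15, and Ifit3 moves the most, from 0.33 to 0.71.

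The members moved together from library to library. Over the 6 libraries, the correlations of log2 CPM between members lay between 0.522 (Ifit1bl1 with Ifit2) and 0.998 (Oas1a with Oasl2), with a median of 0.923 over 45 pairs, a description in which all pairs share the same libraries. Wild-type replicate 2, the library with the most counts, was the lowest for all 10 members. It was the lowest library for 25.8% of the other genes in the same range of counts per base. Wild-type replicate 1 was the highest wild-type library for 9 members, and sEH-/- replicate 3 was the lowest sEH-/- library for 8. Taking the median over the members relative to the wild-type mean (log2 scale), the sEH-/- libraries stood at 0.34, 0.45 and 0.35 and the wild-type libraries at 0.24, -0.27 and 0.021. The distance within the wild-type group was thus wider than that between its highest library and the lowest sEH-/- library. The 5 other genes with the most similar profile over the libraries were Nisch (r = 0.994), Ifi213 (0.994), Isg15 (0.992), Nudt7 (0.992) and Ap3d1 (0.991). The profile includes the difference between genotypes, and genes with few counts were left out of this search. Of these, only Ifi213, an interferon-inducible gene of the p200 family, was called, with a log2 fold change of 0.72 (edgeR, adjusted p = 0.047). Without wild-type replicate 2 it was 0.53 (edgeR, adjusted p = 0.158). Isg15, the ubiquitin-like modifier, had 0.30 (edgeR, adjusted p = 0.095). Ap3d1 had 0.22, Nisch 0.16 and Nudt7 0.096 (edgeR, adjusted p = 0.118, 0.265 and 0.621). The call of Ifi213 was also lost without sEH-/- replicate 1, sEH-/- replicate 2 or wild-type replicate 3 (edgeR, adjusted p = 0.0504, 0.137 and 0.175). It was lost too with the library total as a covariate (edgeR, adjusted p = 0.073) and with the replicate block (edgeR, adjusted p = 0.052).

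The calls depended on single libraries. All 10 fold changes stayed above 0 whichever library was left out, and the median log2 fold change ranged from 0.27 without wild-type replicate 2 to 0.49 without wild-type replicate 1. Ifit1bl1, Ifit3b and Oas2 were no longer called when any one of sEH-/- replicate 2, wild-type replicate 2 and wild-type replicate 3 was removed. Without wild-type replicate 2 their log2 fold changes were 1.49, 1.09 and 0.76 (edgeR, adjusted p = 0.157, 0.067 and 0.092). In the same 3 fits the number of genes called among all tested fell from 360 to 96, 25 and 6. When sEH-/- replicate 3 or wild-type replicate 1 was removed, Ifit1 was called too, at 0.63 and 0.65, which made 4 members. With the log2 library total as a covariate, Oas2 and Ifit3b passed the size limit with adjusted p values of 0.056 and 0.051 and only Ifit1bl1 of the members was called.

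**Figure D4:**
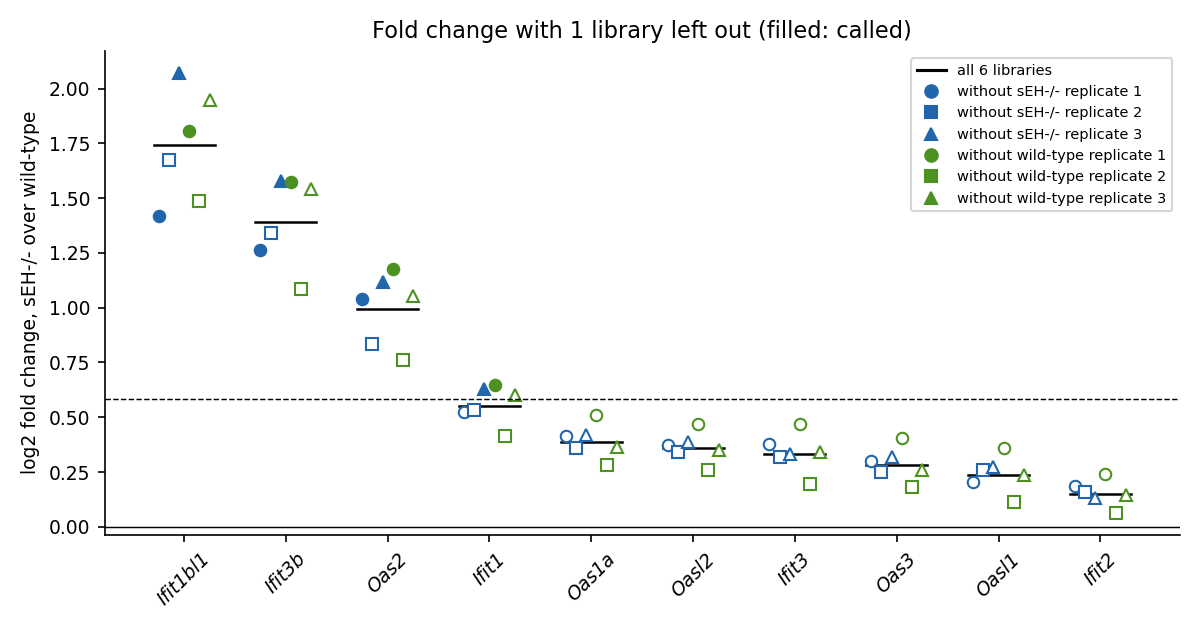
Log2 fold change of each member with all 6 libraries and with 1 of them removed at a time, with filled symbols where the gene was called and a dashed line at the size limit of 0.585. All values are above 0, and those without wild-type replicate 2 are the lowest for 9 of the 10 genes.

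Other genes of the 2 families were measured alongside. Oas1g, the neighbour that shares sequence with Oas1a, rose, from 45.5 ± 6.0 CPM in wild-type to 68.1 ± 12.7 CPM in sEH-/- cells, a log2 fold change of 0.59 (edgeR, adjusted p = 0.047). Of the fits with a library removed, it kept this call only without sEH-/- replicate 3 or wild-type replicate 1, and lost it without sEH-/- replicate 1 (adjusted p = 0.057). The call was also lost with limma-voom (adjusted p = 0.052). In edgeR it was lost with the library total as a covariate (adjusted p = 0.082) and with the replicate block (adjusted p = 0.065). Without scaling factors the log2 fold change of Oas1g was 0.573, under the size limit. Oas1b had 0.83 (adjusted p = 0.073), Oas1c 0.25 (adjusted p = 0.29) and Ifit1bl2 -0.19 (adjusted p = 0.83), and Oas1h was at 0 in all libraries. Among 12 tested genes within 200 kb of the Oas cluster, Rph3a, which encodes a vesicle trafficking protein and no interferon effector, also rose, from 4.93 ± 1.12 to 14.9 ± 4.93 CPM, a log2 fold change of 1.60 (edgeR, adjusted p = 0.022), which was not called without sEH-/- replicate 2 (1.31, adjusted p = 0.057), wild-type replicate 2 (adjusted p = 0.119) or wild-type replicate 3 (adjusted p = 0.129). Of the tested neighbours within the same distance of the Ifit cluster (5 genes) and the Oasl cluster (11 genes), 0 were called. Of all tested genes, 2.61% were called in either direction.

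The pathway around the members was followed from its ligands to its other targets. Of the interferon ligands on the list, Ifnb1 and Ifna4 were in the table, and both had 0 counts in every library, which allows up to 0.49 to 0.68 CPM (3 counts per library, counting error only). Of 9 receptors and kinases 0 were called, against 2.61% of all tested genes in either direction. Their median log2 fold change was 0.17, and 8 were above 0, against 49.8%. Jak1 had -0.13 and Jak2 0.24. Of 9 ISGF3 and interferon regulatory factor genes, 8 had a log2 fold change above 0 and 0 were called, against the same shares. Their median was 0.16. Stat2, the ISGF3 subunit, was measured at 402 ± 29.2 and 302 ± 37.1 CPM, a log2 fold change of 0.41 (edgeR, adjusted p = 0.051), and Irf8 at -0.0063. Of 17 sensors and adaptors, 1 was called, against 1.51% of all tested genes. This was Ikbke, a kinase upstream of Irf3 and Irf7, with a log2 fold change of 0.65 (edgeR, adjusted p = 0.030). The median of the 17 was 0.35, close to the 0.37 of the members, and 14 were above 0, against 49.8% of all tested genes. By the adjusted p alone 4 were higher, against 2.39%. All sEH-/- libraries lay above all wild-type libraries in 9 (against 11.8%) and below them in 2 (against 14.5%). Of 9 negative regulators 0 were called and 8 were above 0, with a median of 0.21, Trim30a at 0.27 and Ptpn11 at 0.073. In 5 of them all sEH-/- libraries lay above all wild-type libraries, against 11.8% of all tested genes. The same held for 2 of the receptors and kinases and for 1 gene of the ISGF3 list. With 9 genes per list, 0 calls do not show that a list was equal between genotypes.

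All 38 other interferon-stimulated antiviral genes had a log2 fold change above 0, with a median of 0.32. Of these, 3 were called higher, against 1.51% of all tested genes, and 0 lower. Cmpk2, a mitochondrial nucleotide kinase, had 0.97 (edgeR, adjusted p = 0.035), Helz2, a helicase, 0.69 (adjusted p = 0.028), and Isg20, an exonuclease, 0.66 (adjusted p = 0.041). With the adjusted p alone 8 of the 38 passed, against 2.39% of all tested genes, and in 26 all sEH-/- libraries lay above all wild-type libraries, against 11.8%. The lists overlap. Dhx58, Ifih1 and Ddx58, which passed by the adjusted p alone, and Zbp1 were also on the list of sensors and adaptors. Usp18, Trim30a and Isg15 were also on the list of negative regulators. Among the 20 genes induced mainly by interferon-γ, 13 were above 0, the median was 0.040 and 1 was called. This was Cxcl10, a chemokine that type I interferon also induces, which had 302, 200 and 43 counts in sEH-/- and 21, 5 and 14 in wild-type cells and rose by 3.78 on the log2 scale (edgeR, adjusted p = 0.018). The calls of Cmpk2, Helz2, Isg20, Cxcl10 and Ikbke were each lost when wild-type replicate 2 or wild-type replicate 3 was removed, and all but that of Cxcl10 when sEH-/- replicate 2 was. Those of Cmpk2 and Isg20 were also lost without sEH-/- replicate 1 (adjusted p = 0.051 and 0.054) and with the library total as a covariate, that of Isg20 with thinning and with the replicate block, and that of Cxcl10 with limma-voom (adjusted p = 0.060). Without wild-type replicate 2, the log2 fold change of Cxcl10 was 3.30 (edgeR, adjusted p = 0.089) and that of Cmpk2 0.73 (adjusted p = 0.102).

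**Figure D5:**
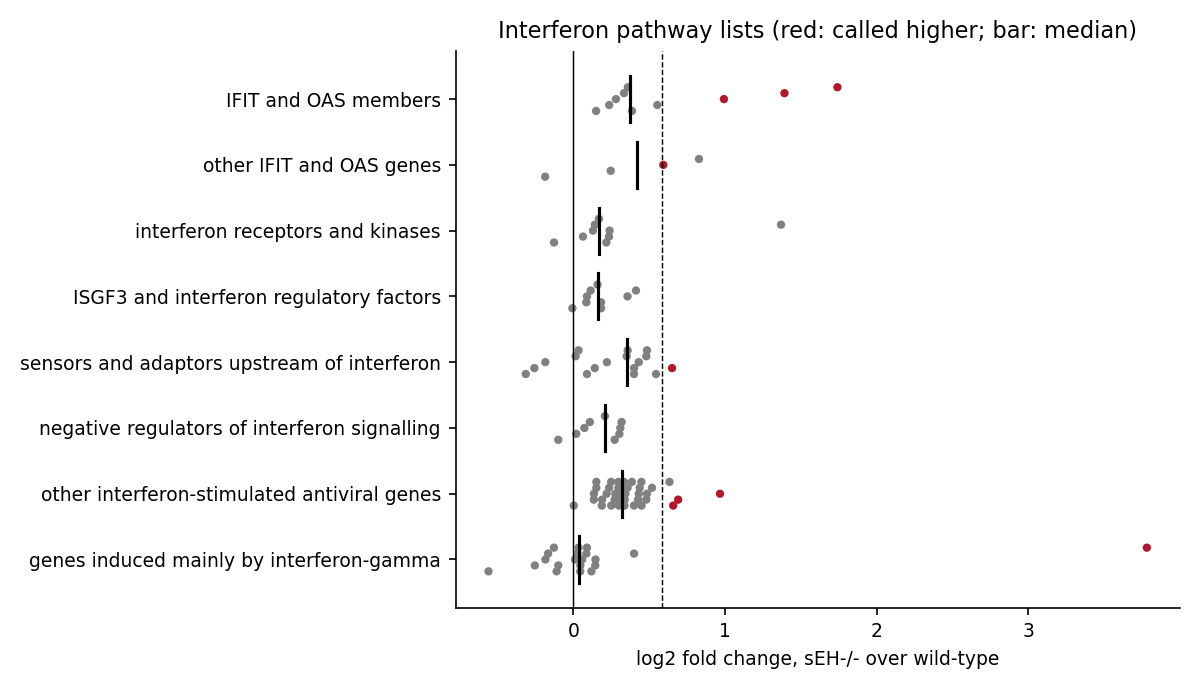
Log2 fold changes of the tested genes of each pathway list, 1 point per gene with called genes in red, a bar at the median of the list and a dashed line at the size limit of 0.585. The members and the other interferon-stimulated antiviral genes lie above 0 throughout, with medians of 0.37 and 0.32. The sensors and adaptors have a median of 0.35, with 14 of 17 above 0. The genes induced mainly by interferon-γ have a median of 0.040. Some genes stand on more than 1 list.

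Markers of other cells were examined beside these values. The summed level of the 10 macrophage markers lay between 2359 and 2838 CPM in the sEH-/- and between 2105 and 2579 CPM in wild-type libraries. All 10 had a log2 fold change above 0, with a median of 0.16, and 0 were called, against 2.61% of all tested genes. Cd14, at 0.50, passed by the adjusted p alone (edgeR, adjusted p = 0.029). Of 7 neutrophil markers 2 were tested, Csf3r with a log2 fold change of 0.84 (edgeR, adjusted p = 0.069) and S100a8 with 0.54 (adjusted p = 0.057). The summed level of the 7 was 70.3 to 113 CPM in the sEH-/- and 48.4 to 52.5 CPM in wild-type libraries, which did not overlap, while the granule gene Camp had 10 counts at most. Dendritic cell markers summed to 136 to 159 CPM and 147 to 165 CPM, with Cd209a at 0. Of the 5 tested, 1 had a log2 fold change above 0, the median of the 5 was -0.31 and 0 were called. Stromal markers summed to 16.8 to 35.4 CPM in the sEH-/- and 12.5 to 68.4 CPM in wild-type libraries, with the highest sum in wild-type replicate 2, where the members were lowest. Lymphocyte markers, of which Cd4 was tested, summed to 16.5 to 35.2 CPM and 20.3 to 31.0 CPM, and the erythroid markers Ank1 and Klf1 to 7.95 to 11.7 CPM and 5.08 to 8.20 CPM. The part of these other cells in the difference of the IFIT and OAS genes was not tested.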

How the data were processed

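The authors trimmed the reads, aligned them with STAR (build mm10), discarded duplicates, reads that matched several places and ribosomal or mitochondrial reads, and used featureCounts on exons, by strand and without reads over several genes. The deposited counts are not normalized and cover 19309 genes, 282 of them with no count. The labels and the methods differ on the library kit (an mRNA or a total RNA kit). The processing notes name Trimmomatic 0.39, STAR 2.7.7a, Picard 2.21.7, featureCounts 1.6.5 and DESeq2 1.30.0, and the methods give other versions of some of these.

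Counts were tested in R 4.3.3 with edgeR 4.0.16 (TMM, glmQLFit and glmQLFTest, no covariates) on the 13785 genes with a mean above 5 counts, and calls needed an adjusted p (Benjamini-Hochberg) under 0.05 and a log2 fold change over 0.585 in size, the limits of the study. CPM used TMM-scaled library sizes, and summed marker levels and the limits for 0 counts used plain totals. The SE was obtained from the log2 fold change and its F statistic. Scripts were tested on simulated data. Exon lengths and shared 50-base words came from GENCODE M21, which held 19286 of the gene identifiers, all on the same chromosome. The labels number the replicates, and same-numbered libraries did not deviate together, which cannot show whether they were paired.

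The members and lists were chosen with earlier results of these data known. Genes named beside the members are Ephx2, called genes of the lists (or the 2 with the highest mean count where none was called), marker genes by mean count, called genes within 200 kb and the 5 genes most alike in profile. Other marker genes, the other IFIT and OAS genes and the named ligands were added after their values were seen. One list fixed for the pathway is not reported here. DESeq2 1.42.0, limma 3.58.1 (voom), other scalings and filters, thinning, a covariate, a replicate block and leaving out each library were tried as alternatives, and the ceiling corrections were added after seeing the data.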

Additional observations from a re-analysis of the deposited data

How the results depend on the processing

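The members called higher numbered 3 with DESeq2, RLE scaling, no scaling factors, both other filters, thinning and the replicate block. They numbered 2 with limma-voom, 4 with the adjusted p alone and 1 with the library total as a covariate. With the corrections for saturation at 1 count per exonic base and per unique word they numbered 4 and 5. The unique words were used for the members only. When each library was left out, the members called higher numbered 0 to 4. The median of their log2 fold changes was 0.61 with the unique words, 0.27 to 0.49 with a library left out, and 0.34 to 0.42 otherwise. All 10 members stayed above 0 in every alternative run, and none was called lower. Ifit1bl1 had an adjusted p of 0.057 with limma-voom. The cause of the uneven effect of single libraries was not tested.

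Over all tested genes, 360 were called, 553 with the adjusted p alone, 171 with the covariate, 473 with DESeq2, and 6 to 625 with a library left out. Called genes numbered 307 with limma-voom, 368 with RLE scaling, 363 without scaling factors and 360 with thinning. They numbered 514 without a filter on low counts and 335 with at least 10 counts in every library. With the corrections per exonic base and per unique word, 400 and 401 genes were called. Of the other interferon-stimulated antiviral genes, 1 was called with the covariate, 8 with the adjusted p alone and 0 to 7 with a library left out. Ephx2 kept its call wherever it was tested, with -4.53 to -3.79 when a library was left out, and has no value under the filter of at least 10 counts in every library.

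With the replicate number as a block, 234 genes were called and 3 members, so that the block changed no call of a member. The correlations of the deviations of same-numbered libraries were -0.082, -0.26 and -0.037. The sEH-/- replicates 1, 2 and 3 correlated best with wild-type replicates 2 (0.128), 1 (0.162) and 2 (0.125). Deviations from a mean of 3 libraries are not free of each other, so these values cannot show whether libraries were paired. Depth limits the lowest member, Ifit1bl1, to 42 to 279 counts per library, and for Ifnb1 and Ifna4 levels under 3 counts could not be seen.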
